A study of Bos taurus with 7 samples.

Results

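The squamous lineage transcription factors are regulators that give a stratified squamous epithelium its identity and drive its cells from the basal layer to the keratinised surface. This account covers 10 of them: TP63, SOX2, SOX15, GRHL1, GRHL3, OVOL1, KLF4, KLF5, ZNF750 and PAX9. They were chosen by name, as the probes whose gene name in the scanner files equals one of these symbols, and each of the 10 had 1 probe. The array holds 15008 probes under 14952 gene names. The tissue was the rumen epithelium of 7 Holstein calves, 3 given forage (HAY, calves 9, 10 and 13) and 4 without forage (CON, calves 8, 11, 12 and 14). The design names 3 weeks after weaning, and the labels give neither age nor the composition of the diets. Total RNA (500 ng per calf) was labelled with cyanine 3 and hybridised to 1 single-colour Agilent array per calf. The question was whether feeding forage changed the epithelium, here asked of its lineage regulators.

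The rumen is a part of the stomach that carries a keratinised, multilayered lining instead of glands. In such linings p63, the product of TP63, maintains the dividing basal cells, together with SOX2, a factor of the embryonic foregut. PAX9 is a factor of foregut and oral epithelium. The Krüppel-like factor KLF4, grainyhead-like and OVO-like factors and ZNF750 act as cells leave the basal layer, stop dividing and build the barrier. KLF5, also Krüppel-like, is active in proliferating cells. These roles are background and were not measured here.

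What the array reads of each gene is a 60-base probe, and a single probe cannot tell apart the isoforms of a gene such as TP63. One probe each is shown of a p63, a grainyhead-like, a Krüppel-like and a paired box gene, as examples of what was measured, in the 5′ to 3′ direction as deposited, with all 60 bases in capitals because all of them are on the array.
TP63: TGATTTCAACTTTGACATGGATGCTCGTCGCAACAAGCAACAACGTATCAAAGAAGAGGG
GRHL3: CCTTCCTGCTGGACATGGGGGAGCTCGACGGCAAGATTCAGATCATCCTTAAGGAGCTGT
KLF5: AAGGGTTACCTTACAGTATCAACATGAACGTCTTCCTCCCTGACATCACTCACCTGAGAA
PAX9: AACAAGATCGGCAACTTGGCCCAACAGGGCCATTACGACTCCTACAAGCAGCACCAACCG
On UMD_3.1, the build named in the file headers, these probes lie at chr1:78013501-78013560 (minus strand), chr2:129160821-129160880 (minus), chr12:48107053-48107112 (plus) and chr21:47293784-47293843 (plus). The probe of SOX2 lies at chr1:85933327-85933386, that of GRHL1 at chr11:87565842-87565901 and that of KLF4 at chr8:98843872-98843931, all on the minus strand. The probe of SOX15 lies at chr19:27930727-27930786 (minus), that of ZNF750 at chr19:50483293-50483351 (plus) and that of OVOL1 at chr29:44584023-44584082 (plus). SOX15 and ZNF750 thus share chromosome 19, and TP63 and SOX2 share chromosome 1. Exon and UTR annotation of this build was not used here.

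All 10 transcription factors were well above background on all 7 arrays, against 77.5% of the probes on the array, and none was saturated. Signals are given as log2 values whose 0 point is the array's 75th percentile, so a value of 1 is 2 times that level. The tissue carried the markers of its label: of 11 squamous marker genes on the array, KRT5, KRT14, DSG3, DSC3, PKP1, CDH1, EPCAM, PERP, CLDN1 and CLDN4 were well above background on all 7 arrays. The exception was KRT4, above background on the 4 CON arrays and on none of the HAY arrays. Of 23 columnar gut genes, 13 were above background on all arrays too, CDX2, HNF4A and GATA4 among them, while KRT20, TFF2 and ATP4B were above it on none. Their summed level was low. The 23 genes summed to 1.017 to 1.54 times the 75th percentile over the calves, against 208.5 to 287.7 times for the 11 squamous markers. CDX2 had means of -6.74 in HAY and -6.9 in CON, and HNF4A of -6.06 and -6.35. Not all were so dim: KRT8 stood at -0.51 in HAY and -0.83 in CON, and GATA6 at -1.92 and -2.3. The lowest values called well above background were -7.75 to -7.26 on the 7 arrays.

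None of the 10 transcription factors differed between the feeding groups at an adjusted p under 0.05 (limma, Benjamini-Hochberg over all 12604 probes tested), where 0.00793% of all probes did. None had an unadjusted p under 0.05 either, against 13.9% of all probes. In 5 of 15 alternatives 1 factor did, KLF4 with normexp, with median centring and without CON calf 11, OVOL1 without HAY calf 9, and TP63 with a stromal score as a covariate. The precision was enough to bound the differences: for 9 of the 10 the 95% interval lay within 2-fold in both directions, the exception being OVOL1, whose upper limit was 2.01-fold. For SOX2 and GRHL3 it lay within 1.5-fold. Among all probes, 72.2% had an interval within 2-fold and 36.2% within 1.5-fold. The values of 8 factors were higher in HAY and of 2 lower, with a median log2 difference of 0.17, where 54.5% of all probes were higher in HAY and their median was 0.032. That count of higher values was 10 with arrays centred on their median and 6 with a stromal score as a covariate. The median size of the difference was 0.17 for the factors and 0.21 for all probes. The HAY arrays lay in row 1 of the slide and the CON arrays in row 2, so the row on the slide cannot be told apart from the feeding.

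**Figure D1:**
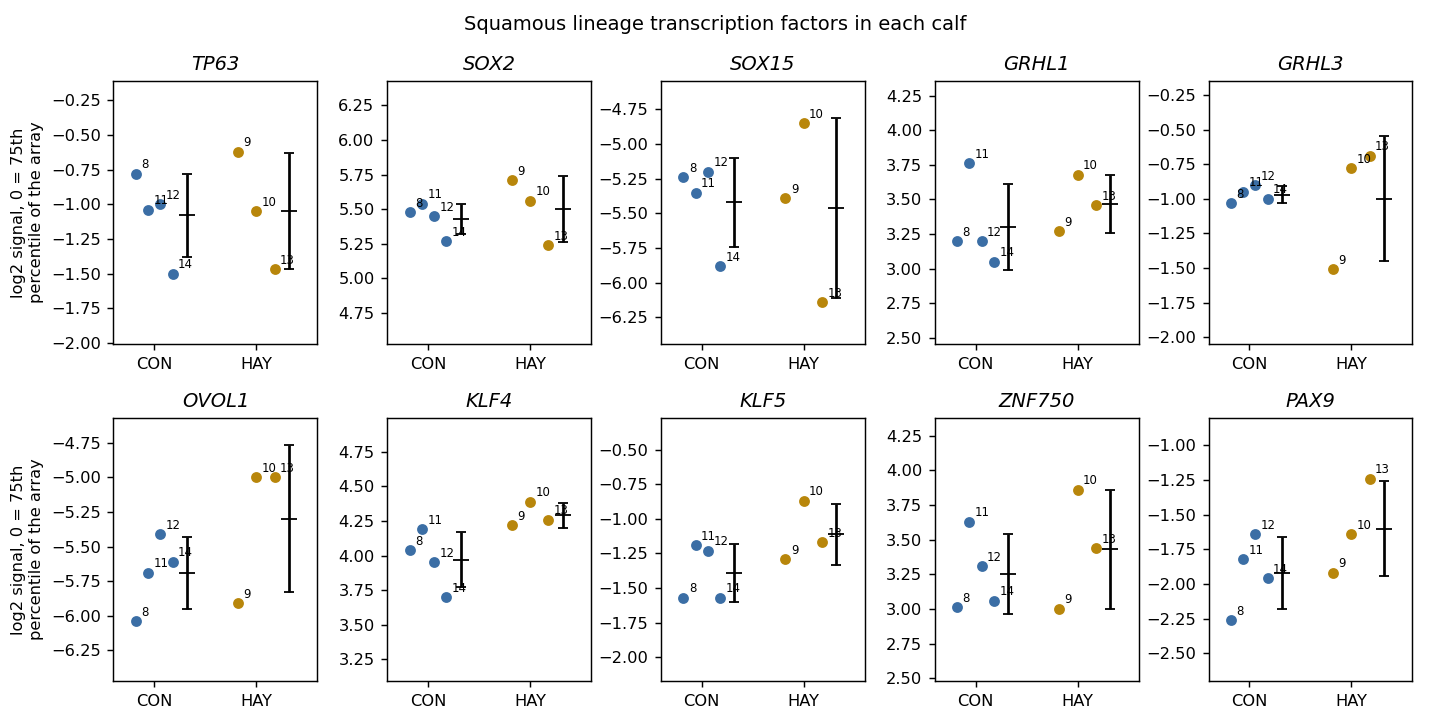
Log2 signal of each transcription factor (y axis, 0 = 75th percentile of the array, each panel spanning the same number of log2 units) in the 4 CON and 3 HAY calves, numbered as in the labels; black bars give the group mean and SD. Only for KLF4 do the HAY calves (4.22 to 4.39) all lie above the CON calves (3.70 to 4.19).

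Of the factors of the basal layer, TP63 had nearly the same mean in both groups. Its log2 signal was -0.62, -1.05 and -1.47 in HAY calves 9, 10 and 13, against -0.78, -1.04, -1.0 and -1.50 in CON calves 8, 11, 12 and 14. The HAY calves spanned almost the whole range of the CON calves, with calf 9 above all of them. The mean was -1.05 ± 0.42 (SD, n = 3) for HAY, against -1.08 ± 0.30 (SD, n = 4) for CON. The difference was 0.034 (SE 0.25, limma adjusted p = 0.968). The 95% interval ran from -0.54 to 0.61. The difference changed sign when HAY calf 9 (-0.18) or CON calf 14 (-0.11) was left out.

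SOX2 varied little from calf to calf. Its log2 signal was 5.71, 5.56 and 5.24 in HAY calves 9, 10 and 13, against 5.48, 5.54, 5.45 and 5.27 in CON calves 8, 11, 12 and 14. Highest and lowest calf, both in HAY, were 1.38-fold apart, and 22.7% of all tested probes had a smaller spread within groups. The difference was 0.067 (SE 0.16, limma adjusted p = 0.884), and its 95% interval allowed SOX2 to be up to 1.35-fold higher or 1.23-fold lower in HAY. It was -0.0068 with quantile normalization and -0.035 without HAY calf 9.

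SOX15, a relative of SOX2 found in stratified epithelia, was dim and the most variable of the 10. Its processed signal was 31.0 to 65.2 intensity units, where the lowest signal called well above background was 9.02 to 12.2 units on the 7 arrays. Its log2 signal was -5.39, -4.85 and -6.14 in HAY calves 9, 10 and 13, against -5.24, -5.35, -5.20 and -5.88 in CON calves 8, 11, 12 and 14. The highest and the lowest calf of the study, 2.45-fold apart, were both HAY. The difference was -0.041 (SE 0.32, limma adjusted p = 0.969), with values from -0.35 without HAY calf 10 to 0.30 without HAY calf 13.

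PAX9, which patterns foregut and oral epithelium, had a log2 signal of -1.92, -1.64 and -1.24 in HAY calves 9, 10 and 13, against -2.26, -1.82, -1.64 and -1.96 in CON calves 8, 11, 12 and 14. HAY calf 13 lay above every other calf and CON calf 8 below, and the other 5 were interleaved. The means were -1.60 ± 0.34 (SD, n = 3) and -1.92 ± 0.26 (SD, n = 4), a 1.25-fold higher HAY level (difference of 0.32 in log2, SE 0.21, limma adjusted p = 0.536). Without HAY calf 13 the difference was 0.14, and without CON calf 8 it was 0.20.

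The Krüppel-like factors came closest to a separation of the groups. KLF4, which drives barrier formation in the upper layers, had a log2 signal of 4.22, 4.39 and 4.26 in HAY calves 9, 10 and 13, against 4.04, 4.19, 3.95 and 3.70 in CON calves 8, 11, 12 and 14. All 3 HAY calves lay above all 4 CON calves, but by 0.03 log2 units between HAY calf 9 and CON calf 11. Of all tested probes, 6.55% were likewise higher in HAY without overlap and 5.29% lower, so 1 of 10 factors is near the share for the array. The HAY mean of KLF4 was 1.25-fold that of CON. On the log2 scale the difference was 0.32 (SE 0.15, 95% interval -0.03 to 0.68), with a limma adjusted p of 0.395. The difference was 0.33 with normexp background correction, 0.39 with median centring, 0.39 without CON calf 11 and 0.21 with quantile normalization. The adjusted p lay between 0.283 and 0.721 over the 15 alternatives. KLF4 was also the factor with the lowest spread relative to the array, with 20.4% of all probes below it.

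KLF5, which is active in proliferating cells of the oesophageal and intestinal lining, followed with a smaller difference. Its log2 signal was -1.29, -0.87 and -1.17 in HAY calves 9, 10 and 13, against -1.57, -1.19, -1.23 and -1.57 in CON calves 8, 11, 12 and 14. HAY calf 9 lay below 2 CON calves, and the other HAY calves lay above all of them. The difference was 0.28 (SE 0.17, 95% interval -0.13 to 0.68, limma adjusted p = 0.505), and it was positive in all 15 alternatives, between 0.14 and 0.37. Of these, the authors' table and the 2 other filters left it at 0.28.

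ZNF750, a zinc finger factor induced by p63 that activates late differentiation genes, was spread widely in both groups. Its log2 signal was 3.00, 3.86 and 3.44 in HAY calves 9, 10 and 13, against 3.01, 3.63, 3.31 and 3.06 in CON calves 8, 11, 12 and 14. The lowest and the highest of the 7 calves, 1.81-fold apart, were both HAY. The difference was 0.18 (SE 0.25, limma adjusted p = 0.787), and -0.031 without HAY calf 10.

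The grainyhead-like factors GRHL1, an activator of desmosomal genes, and GRHL3, an activator of cross-linking enzymes of the cornified envelope, showed no common direction. GRHL1 had a log2 signal of 3.27, 3.68 and 3.46 in HAY calves 9, 10 and 13, against 3.20, 3.76, 3.20 and 3.05 in CON calves 8, 11, 12 and 14. CON calf 11 was the highest of all and the other CON calves lay below every HAY calf. The difference was 0.17 (SE 0.20, limma adjusted p = 0.764), and 0.32 without CON calf 11.

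GRHL3 had a log2 signal of -1.51, -0.78 and -0.69 in HAY calves 9, 10 and 13, against -1.03, -0.95, -0.90 and -1.0 in CON calves 8, 11, 12 and 14. The CON calves lay close together, at -0.97 ± 0.06 (SD, n = 4), HAY calf 9 lay below all of them and HAY calves 10 and 13 above. The HAY mean of -1.0 ± 0.45 (SD, n = 3) thus averages calves on either side of CON. The difference was -0.027 (SE 0.21, limma adjusted p = 0.969), and it was 0.23 (SE 0.14, adjusted p = 0.424) without HAY calf 9.

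OVOL1, a repressor that lets keratinocytes leave the cell cycle, showed the same split. Its log2 signal was -5.91, -5.00 and -5.00 in HAY calves 9, 10 and 13, against -6.04, -5.69, -5.41 and -5.61 in CON calves 8, 11, 12 and 14. HAY calves 10 and 13 lay above every CON calf, and HAY calf 9 below all except calf 8. The difference of 0.39 was the highest of the 10 (SE 0.27, 95% interval -0.24 to 1.01, limma adjusted p = 0.546), or 1.31-fold. Without HAY calf 9 it was 0.69 (limma adjusted p = 0.161). The probe is dim, at 28.1 to 68.4 processed intensity units, and the difference was 0.065 with normexp, which adds an offset that pulls dim probes together.

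**Figure D2:**
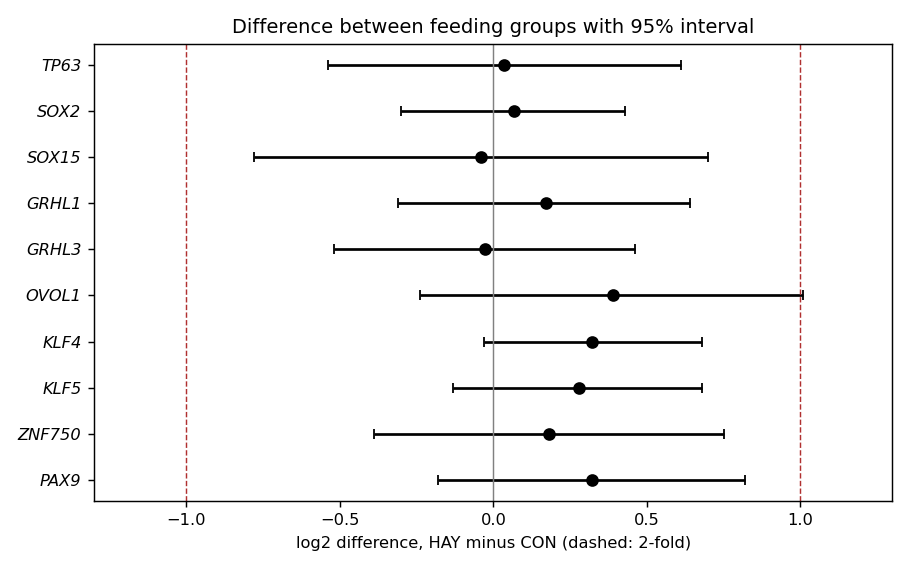
Log2 difference of HAY minus CON (x axis) for each transcription factor, with the 95% interval of the limma fit over 7 calves; dashed lines mark 2-fold. All 10 intervals include 0, and that of OVOL1 alone reaches past a dashed line, to 1.01.

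The correlation of the factors with each other across calves was computed for every pair, and no pair passed correction. Of 45 pairs, 35 had a positive and 10 a negative Pearson r over the 7 calves, with a median of 0.394. Of all pairs of tested probes, 50.8% were positive. At an unadjusted exact permutation p under 0.05 (two-sided, all pairings) stood 8 pairs, and 0 of the 45 after Benjamini-Hochberg adjustment, for Pearson's r as for Spearman's rho. The share of all probe pairs under that p was not computed, so the 8 cannot be called an excess. The 45 pairs are also not independent, since each factor is in several of them. All values share the scaling of their array.

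The smallest p belonged to OVOL1 with PAX9, at r = 0.883 (exact permutation p = 0.00496, adjusted p = 0.134) and rho = 0.857 (exact permutation p = 0.0238, adjusted p = 0.216). It was 0.841 after centring within groups and 0.866 without HAY calves 10 and 13. Of all other tested probes, 2.44% were at least as strongly correlated with OVOL1. With median centring this pair alone passed (r = 0.899, exact permutation adjusted p = 0.0446). With normexp its r was lower, at 0.756 (exact permutation p = 0.045, adjusted p = 0.287), and the OVOL1 probe is dim.

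KLF5 with ZNF750 came next, at r = 0.883 (exact permutation p = 0.00595, adjusted p = 0.134) and rho = 0.821 (exact permutation p = 0.0341, adjusted p = 0.216). This was 0.930 after centring within groups, and 0.752 without HAY calf 10 and CON calf 14. GRHL1 with ZNF750 had the same r of 0.883 (exact permutation p = 0.0127, adjusted p = 0.147) but a rho of 0.643 (exact permutation p = 0.139, adjusted p = 0.368). Without HAY calf 10 and CON calf 11, the calves farthest from the median of GRHL1, its r was 0.646. HAY calf 10 and CON calf 11, 1 calf of each group, were the highest pair of calves for GRHL1 and for ZNF750, whereas KLF5 had HAY calf 13 between them.

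The highest r was that of TP63 with SOX2, 0.898 (exact permutation p = 0.0131, adjusted p = 0.147), with a rho of 0.643 (exact permutation p = 0.139, adjusted p = 0.368). HAY calf 13 and CON calf 14 were the lowest for both genes, and without them r was 0.590. The lowest r was that of TP63 with GRHL3, -0.679 (exact permutation p = 0.0812, adjusted p = 0.270), which was -0.919 without the same calves, with a rho of -0.607 (exact permutation p = 0.167, adjusted p = 0.418). HAY calf 9, the highest in TP63, was the lowest in GRHL3.

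**Figure D3:**
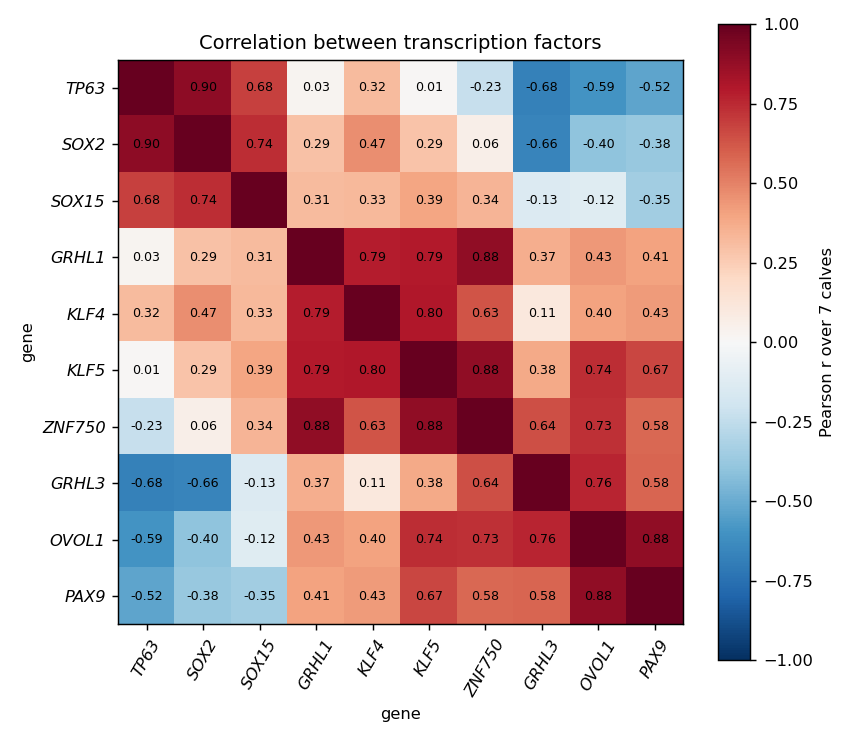
Pearson r over 7 calves (colour and printed value) for each pair of transcription factors, which are named on both axes. TP63, SOX2 and SOX15 have positive values with each other, and all 3 have negative ones with GRHL3, OVOL1 and PAX9. The signs depend on few calves. Without HAY calf 13 and CON calf 14, SOX15 had 0.688, 0.845 and 0.454 with these 3, and -0.558 with TP63. Without HAY calves 9 and 13, SOX2 had 0.534, 0.271 and 0.294 with them. Those of TP63 with them stayed negative without HAY calf 13 and CON calf 14. Of the 45 pairs, 0 passed the adjustment.

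Smooth muscle, fibroblast, endothelial and most leukocyte markers had lower values in HAY, none past the adjustment, while nerve and glia markers, given below, were mostly higher. They are given beside the factors, since stroma and factors were measured in the same RNA. Of all probes, 54.5% were higher in HAY. All 10 smooth muscle and all 12 fibroblast and matrix markers had lower values in HAY, with median log2 differences of -1.25 and -1.55. The summed smooth muscle signal was 15.55 to 36.46 times the 75th percentile of the array in HAY and 36.65 to 86.57 times in CON. That of fibroblast and matrix genes was 16.42 to 75.1 times in HAY and 50.5 to 240.4 times in CON. All 11 endothelial and 9 of 14 leukocyte markers were lower too, at medians of -0.76 (-0.40 without HAY calf 13 and -1.15 without HAY calf 9) and -0.84, with sums of 2.57 to 7.994 against 5.822 to 13.31 and of 7.94 to 8.205 against 12.01 to 18.67. The 3 or 4 genes of smallest p in each list were ACTA2, DES, TAGLN and MYLK of smooth muscle (-3.25 to -1.21, the lowest being DES, above background on 2 of 3 HAY arrays and at -1.57 with normexp), COL6A1, POSTN, SPARC and FBLN1 of fibroblasts (-1.78 to -1.15), PECAM1, ENG and TIE1 of endothelium (-1.05 to -0.72), and CORO1A, CD74, FCER1G and CSF1R of leukocytes (-1.49 to -0.76). The 5 leukocyte markers with higher values in HAY were CD68, CD3D, CD2, CD79A and CD79B (0.11 to 0.53, the highest being CD79A, at -0.05 with normexp). None of the 4 lists had a gene below background on every array, the lowest adjusted p being that of CORO1A (limma adjusted p = 0.0967). In bulk RNA fewer cells of a type and less RNA per cell cannot be told apart.

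A stromal score, the mean log2 deviation of 22 smooth muscle and fibroblast genes, was 0.069, -0.962 and -1.442 in HAY calves 9, 10 and 13, against 1.613, 0.55, 0.283 and -0.11 in CON calves 8, 11, 12 and 14. For OVOL1 the r against this score was -0.879 (exact permutation p = 0.0111, adjusted p = 0.222 over 40 relations of the factors with 4 scores) and the rho -0.786 (exact permutation p = 0.0480, adjusted p = 0.711). It remained -0.865 after centring within groups and was -0.736 without calves 8 and 13. PAX9 stood at r = -0.866 (exact permutation p = 0.0179, adjusted p = 0.239) and rho = -0.679 (exact permutation p = 0.110, adjusted p = 0.711). Leaving out calves 8 and 13 gave r = -0.321, so the PAX9 value rests on that pair of calves. No relation of the 40 passed the adjustment.

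In a fit that also held the stromal score, the difference of OVOL1 was -0.22 (SE 0.24) and that of PAX9 -0.12 (SE 0.22), each with the sign turned, and ZNF750 stood at -0.11 and GRHL3 at -0.38. TP63 then differed by 0.62 (SE 0.21, 95% interval 0.12 to 1.13, limma adjusted p = 0.595), SOX2 by 0.30 and SOX15 by 0.36, and KLF4 by 0.42 (SE 0.22). Score and feeding move together over these calves, and what part the stroma has in any difference was not tested further.

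**Figure D4:**
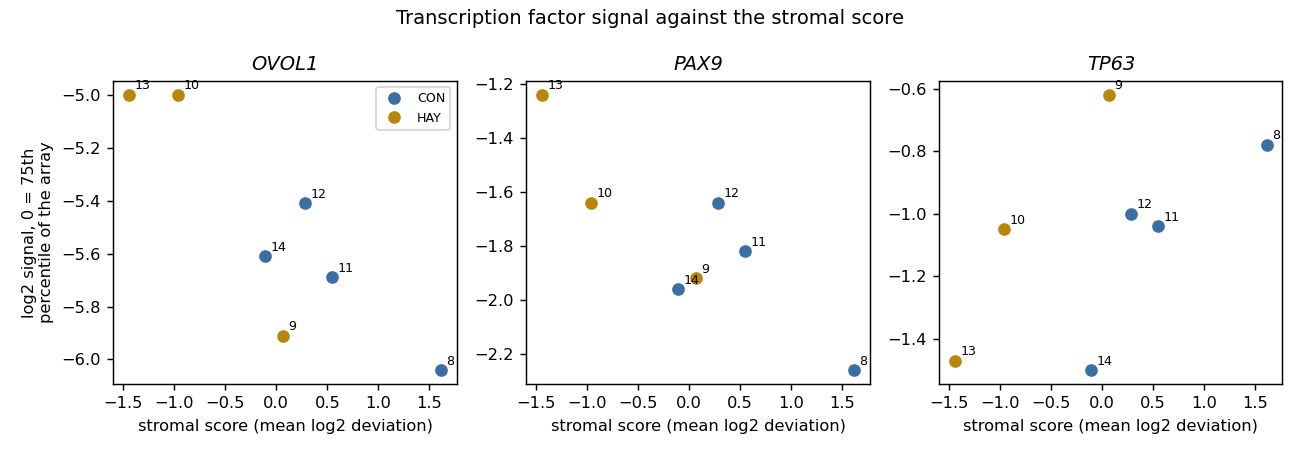
Log2 signal (y axis, 0 = 75th percentile of the array) of OVOL1, PAX9 and TP63 against the stromal score (x axis, mean log2 deviation of 22 genes) in 4 CON and 3 HAY calves, numbered as in the labels. OVOL1 and PAX9 are lowest in CON calf 8, which has the highest score (1.613), and highest in HAY calf 13, which has the lowest (-1.442); for OVOL1, HAY calf 10 ties with it.

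Other transcription factors of stratified epithelium were mostly at higher values in HAY. Of 33 tested, 23 were higher and 10 lower, with a median log2 difference of 0.20, where 54.5% of all probes were higher. An unadjusted p under 0.05 was found for 5 of the 33, which is near the 13.9% of all probes in either direction, and all 5 were higher. None passed the adjustment over all probes. HR, a corepressor of hair and skin, had a difference of 0.87 (SE 0.26, limma adjusted p = 0.262) and did not overlap between groups, as 6.55% of all probes did not in this direction, with HAY calves at 3.51 to 4.34 and CON calves at 2.68 to 3.48. The POU factor POU2F3 had a difference of 0.53 (SE 0.17) and likewise did not overlap, at -2.54 to -2.45 against -3.35 to -2.75. DLX3, a homeobox factor of differentiating epidermis, had a difference of 0.42 (SE 0.16) and did not overlap either, at -1.08 to -0.69 against -1.43 to -1.09. GATA3 had a difference of 0.69 (SE 0.27), with overlap between the groups. Overlap was not counted over the whole list. The median was 0.12 with normexp, and omitting HAY calf 9 gave 0.30 and omitting HAY calf 10 gave 0.089.

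Genes of the basal layer, among them known targets of p63, went both ways. Of 26, 11 were higher and 15 lower in HAY, with a median of -0.06. KRT5, the keratin pair partner of KRT14, had a difference of -0.10 (SE 0.17) and KRT14 of 0.58 (SE 0.27, limma adjusted p = 0.381). At an unadjusted p under 0.05 were 4 of the 26, again near the 13.9% of all probes in either direction, and all 4 were lower in HAY. DST, which anchors keratin at the hemidesmosome, had a difference of -0.53 (SE 0.14, adjusted p = 0.234), and the adhesion receptors ITGB1 and CD44 of -0.76 and -0.66. KITLG, at -1.59 (-0.55 with normexp), passed the detection call in 2 of the 3 HAY calves. The score of this list had an r of 0.853 with SOX15 (exact permutation p = 0.0105, adjusted p = 0.222), the smallest p of the 40 relations. With SOX2 its r was 0.731 and with TP63 0.682, and with GRHL3, OVOL1, KLF4 and PAX9 it was negative (lowest -0.658, PAX9). Without HAY calf 13 and CON calf 14 it was 0.055 with SOX15, -0.486 with SOX2 and -0.755 with TP63.

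Suprabasal and cornified genes, among them known targets of KLF4, GRHL3 and ZNF750, went both ways as well. Of 37, 18 were higher and 19 lower in HAY (median -0.01), with 3 higher and 5 lower at an unadjusted p under 0.05, against 13.9% of all probes in either direction, and none past the adjustment. The differences were wider than those of the factors. KRT78, a keratin of differentiated layers, had a HAY mean 2.59-fold that of CON (difference of 1.37 in log2, SE 0.26, limma adjusted p = 0.165), at -0.51 to -0.34 against -2.19 to -1.11. KLK7, a protease that sheds surface cells, stayed below the detection call in all 3 HAY calves. Its CON mean was 6.97-fold the detection limit of the HAY arrays. The measured means were -9.56 in HAY and -4.72 in CON (limma adjusted p = 0.155), and the difference was -1.16 with normexp, a smaller change. KRT4, a keratin of moist linings and likewise below the call in HAY, had a CON mean 3.63-fold that limit. Its measured means were -7.98 in HAY and -5.66 in CON (limma adjusted p = 0.163), and the difference was -0.68 with normexp, also smaller. These ratios to the detection limit carry no sampling error, so they are not lower bounds on the difference. The smaller normexp values cannot decide its size, since the normexp offset pulls dim probes together. CERS3, which makes ceramides of the barrier, had a difference of -2.06 (SE 0.37; -0.79 with normexp) and was above background on 2 of 3 HAY arrays. The median of the list was -0.62 when the fit held the stromal score. The score of this list had an r of -0.457 with KLF4 over the 7 calves (exact permutation p = 0.291, adjusted p = 0.584). The rho was -0.500 (exact permutation p = 0.267, adjusted p = 0.711), and r was 0.285 without HAY calf 9 and CON calf 14. With GRHL3 and ZNF750 the r of the score was positive, at 0.448 (exact permutation p = 0.324, adjusted p = 0.584) and 0.313 (exact permutation p = 0.482, adjusted p = 0.704).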

How the data were processed

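The scanner files hold spot intensity on a linear scale, which the software (Agilent Feature Extraction 9.5 in the submitters' processing notes) had background-subtracted and detrended, per the file headers. The values in the deposited table of all arrays are on a log2 scale and equal the log2 processed signal minus a constant per array near its 75th percentile (Pearson r of 1.0, SD of the difference at most 0.0004), so its scale and direction are known. Its column medians are -3.12, -3.14 and -3.20 for HAY calves 9, 10 and 13, then -3.09, -3.09, -3.08 and -3.11 for CON calves 8, 11, 12 and 14. The deposited quality flags, 0 or 1 per spot, served as filters.

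Control and outlier spots were left out, log2 signals of a probe's spots were averaged, and the 75th percentile of each array was subtracted. A probe was kept if 3 or more of the 7 arrays had it well above background (12604 of 15008). Groups were compared with limma 3.58.1 in R 4.3.3, tested on simulated data first, adjusted by Benjamini-Hochberg, at a threshold of 0.05. Each calf is 1 replicate, and calf numbers pair no animals. Between 81.5 and 84.6% of spots per array were well above background, and the scanner software's error per member spot was 10.0 to 13.7%. Precision is limited by how many arrays there are. All arrays lay on 1 slide. An array's detection limit is its lowest signal with that call.

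Members, lists and tests were chosen with earlier results of these data known. Named were all members, up to 4 genes of smallest unadjusted p under 0.05 from each list, and 3 pairs of smallest exact p, except 1 gene that is not reported here; TP63 with SOX2 and with GRHL3 were added after their values were seen, as were KRT5, KRT14 and the other squamous and columnar genes given to check the tissue. The relations with list scores were added after the data were seen. Promoter motifs were not analysed here. Alternatives were normexp, median centring, quantile normalization, the authors' table, 2 other filters, slide column as a block, a stromal covariate and leaving out each calf.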

Additional observations from a re-analysis of the deposited data

How the results depend on the processing

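The count of factors past the threshold was 0 in all 15 alternatives, with adjusted p-values from 0.161 upward, and the number with an interval within 2-fold ran from 7 (without HAY calf 9) to 10. Over the whole array 1 probe passed. This was 4 with quantile normalization, 2 with the slide column as a block, and 1 to 21 when each calf was left out (21 if CON calf 14 was omitted, 7 for HAY calf 9, 4 for CON calf 8 and 2 for HAY calf 13). With median centring 1 pair of factors passed, against 0 of 45 with the percentile, and when each calf was left out, chosen after seeing the data, 0 passed.

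Of 150 member values under alternatives 132 kept their direction and 18 turned it, none of them past the threshold, and the cause was not tested. Not all alternatives are separate checks. The 2 other filters left every difference as it was, and the authors' table, shifted by a constant per array, nearly so. The slide column gave the same differences as leaving out CON calf 8. With quantile normalization SOX2 stood at -0.0068, SOX15 at 0.018 and GRHL3 at 0.0022. With median centring, which moved the median of all probes by 0.064, SOX15 stood at 0.023 and GRHL3 at 0.038. With the slide column, where CON calf 8 is alone, SOX15 stood at 0.017, and with the stromal score at 0.36, OVOL1 at -0.22, ZNF750 at -0.11 and PAX9 at -0.12. Leaving out each calf gave -0.18 to 0.24 for TP63, -0.035 to 0.20 for SOX2, -0.35 to 0.30 for SOX15, -0.18 to 0.23 for GRHL3 and -0.031 to 0.40 for ZNF750. GRHL1, KLF4 and KLF5 turned in none. No paired analysis was possible because calf numbers are not shared between groups. SOX15 and OVOL1 were the dimmest of the 10 and had the widest standard errors (0.32 and 0.27).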

Other observations

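The cell cycle genes varied widely between calves of both groups. All 19 tested had a higher mean in HAY (median log2 difference 0.23, but 0.80 if CON calf 14 and 0.60 if HAY calf 10 was left out, -0.21 if HAY calf 13 and -0.087 if CON calf 11 was, and -0.47 with the stromal score as a covariate), but none had an unadjusted p under 0.05, and the mean log2 deviation of the list was -0.03, -0.56 and 1.01 in HAY calves 9, 10 and 13, against -0.08, -1.12, -0.55 and 1.33 in CON calves 8, 11, 12 and 14. HAY calf 13 and CON calf 14, the highest, were the lowest of their groups and of the study in TP63, SOX2 and SOX15. The r of the list with SOX15 was -0.814 (exact permutation p = 0.0276, adjusted p = 0.276 over 40 relations), with a rho of -0.750 (exact permutation p = 0.0663, adjusted p = 0.711), and it rests on these calves, since r was -0.087 without them.

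Of all probes 54.5% had a higher mean in HAY. Nerve and glia markers had a higher mean in HAY for 5 of 6 tested genes (median 0.20, and 0.0037 with normexp), S100B with the smallest p among them (0.65, SE 0.24, limma adjusted p = 0.312), and columnar gut genes for 14 of 17 (median 0.27, and -0.0058 with normexp). Of the latter, GATA4 had a difference of 0.39 (SE 0.16, limma adjusted p = 0.353), and EPCAM, a squamous marker here, of 0.41 (SE 0.17, limma adjusted p = 0.349).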
